A study of Mus musculus with 15 samples.

Results

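Type I interferon response genes are the antiviral genes that cells switch on when interferon-alpha or interferon-beta binds its receptor. They were followed here as a set of 34 genes in bone marrow of leukemic mice. The members were matched by gene symbol, and all 34 had a row in each of the 4 deposited tables, which list between 17775 and 19035 genes. By role, 5 are sensors of foreign or misplaced nucleic acid, 8 act in signalling or in the ISG15 system, 4 belong to the IFIT family and 5 to the OAS family. The other 12 are Mx proteins and further antiviral effectors.

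RNA from 15 libraries in 5 groups of 3 was sequenced after poly(A) selection. The groups given TMZ were 36N TMZ (GFI1 36N/36N) and 36S TMZ (GFI1 KI/KI). The untreated groups were KD (GFI1 KD/KD), 36N (GFI1 36N/36N) and 36S (GFI1 KI/KI). GFI1 is a transcriptional repressor of blood cell development. In all groups human GFI1 replaces the mouse gene: 36S carries the common form, 36N a variant form, and KD a form expressed at 10 to 20% of the usual level. TMZ is temozolomide, a DNA-alkylating drug, given at 50 µg/ml for 20 h before RNA was isolated. Whether the untreated cells were kept in culture for the same time is not given in the sources used here. In every group the leukemia was started by retroviral MLL-AF9, a fusion oncogene, delivered with a GFP reporter into lineage-depleted donor cells. The first C57BL/6 recipients were irradiated with 7 and 3 Gy and later recipients with 3 Gy, and the RNA came from quaternary recipients. It was made from total bone marrow without sorting, so normal host cells can be included. In such bulk samples, fewer cells of a type and less RNA per cell cannot be told apart. Whether the 3 mice of a group carried separately started leukemias is not stated. The p-values therefore measure the spread between these samples. The level of GFI1 in KD cells was not analysed here, so the knockdown was taken from the labels.

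Interferon-alpha and interferon-beta act through the receptor chains IFNAR1 and IFNAR2, which pass the signal to a complex that includes STAT2 and IRF9. It binds a DNA element with repeated GAAA near the start of its target genes. The target genes encode sensors such as RIG-I and MDA5, enzymes that degrade or block viral RNA, and proteins that dampen the response again. Plasmacytoid dendritic cells are known as strong producers of interferon-alpha, and in bone marrow type I interferon is known to rouse dormant blood stem cells.

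The DNA just before the start of 9 members is shown because the binding element of that complex can be read in it. Each line gives the 200 bases that precede the RefSeq start on GRCm38.p6, 5′ to 3′ along the gene, with any run of GAAA, 2 further bases and GAAA, or its reverse complement of TTTC, 2 bases and TTTC, in capitals. Dtx3l, Ifit2, Gbp2, Ddx58, Samd9l and Bst2 were, of the called members with a matched promoter, those with the largest changes under TMZ. Of the tested members Ifit3 had the largest change in KD, Ifit3b is its near copy, and Isg15 holds the most copies of the element shown; the last 3 were chosen after their values were seen.
Isg15, chr4:156200819-156201018, minus strand: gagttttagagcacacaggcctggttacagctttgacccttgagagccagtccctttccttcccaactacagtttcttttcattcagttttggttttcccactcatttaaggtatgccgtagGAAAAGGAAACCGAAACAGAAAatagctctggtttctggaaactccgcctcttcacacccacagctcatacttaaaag
Ifit3, chr19:34583329-34583528, plus strand: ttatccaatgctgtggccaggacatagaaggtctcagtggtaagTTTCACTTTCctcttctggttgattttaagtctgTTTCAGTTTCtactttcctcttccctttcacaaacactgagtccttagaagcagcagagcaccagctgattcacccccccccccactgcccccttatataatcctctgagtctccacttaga
Ifit3b, chr19:34607757-34607956, plus strand: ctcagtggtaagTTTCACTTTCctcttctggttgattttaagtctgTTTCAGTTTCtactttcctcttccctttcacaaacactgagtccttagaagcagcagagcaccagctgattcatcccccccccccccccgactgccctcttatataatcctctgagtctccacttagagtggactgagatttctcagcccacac
Bst2, chr8:71537473-71537672, minus strand: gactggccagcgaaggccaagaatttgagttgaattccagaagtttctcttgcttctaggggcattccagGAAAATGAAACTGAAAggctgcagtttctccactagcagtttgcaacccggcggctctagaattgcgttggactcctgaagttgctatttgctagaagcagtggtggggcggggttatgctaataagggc
Gbp2, chr3:142620463-142620662, plus strand: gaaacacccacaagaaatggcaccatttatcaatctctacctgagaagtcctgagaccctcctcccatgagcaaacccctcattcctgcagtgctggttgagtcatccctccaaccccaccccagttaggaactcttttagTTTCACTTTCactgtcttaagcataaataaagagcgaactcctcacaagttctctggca
Ddx58, chr4:40239826-40240025, minus strand: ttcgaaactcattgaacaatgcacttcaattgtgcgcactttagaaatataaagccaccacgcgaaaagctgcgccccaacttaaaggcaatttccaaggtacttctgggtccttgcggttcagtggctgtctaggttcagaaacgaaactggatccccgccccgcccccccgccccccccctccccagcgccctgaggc
Dtx3l, chr16:35939028-35939227, minus strand: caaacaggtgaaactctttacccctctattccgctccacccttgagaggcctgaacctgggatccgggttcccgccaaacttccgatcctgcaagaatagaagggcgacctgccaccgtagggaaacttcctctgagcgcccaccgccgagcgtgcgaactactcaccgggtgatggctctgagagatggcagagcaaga
Ifit2, chr19:34550494-34550693, plus strand: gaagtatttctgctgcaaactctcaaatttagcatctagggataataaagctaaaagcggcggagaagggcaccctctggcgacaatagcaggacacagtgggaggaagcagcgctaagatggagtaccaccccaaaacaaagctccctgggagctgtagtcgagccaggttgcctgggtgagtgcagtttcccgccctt
Samd9l, chr6:3399572-3399771, minus strand: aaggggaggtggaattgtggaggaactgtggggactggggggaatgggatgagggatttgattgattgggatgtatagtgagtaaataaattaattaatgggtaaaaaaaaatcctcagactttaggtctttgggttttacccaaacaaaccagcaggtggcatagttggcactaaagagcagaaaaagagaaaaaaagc

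Isg15, the ubiquitin-like modifier, held 3 overlapping copies that begin at positions -78, -72 and -66 relative to its start, and Bst2 held 2 overlapping copies. Ifit3 and Ifit3b each held 2 separate copies, and their promoters were 99.6% identical over 260 aligned bases. Gbp2 held 1 copy. Dtx3l, Ifit2 and Samd9l held none in this window, and Ddx58 held 1 at 2 bases past its start, outside the bases printed. RefSeq promoters were matched for 25 of the 34 members. On either strand, 11 of the 25 (44.0%) held the element in the 250 bases before the start, against 3.46% of 27025 genes. With 50 further bases past the start included, the share was 60.0%, against 3.99% of genes. TTCNNNGAA, the element of the type II interferon response, stood before 4 of the 25 (16.0%), against 8.13% of genes. A match of letters is a description of the sequence, not a measured binding site.

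The members lie on 13 chromosomes in the GENCODE annotation of mm10, and 15 of the 34 have another member's start within 100 kb. The 4 IFIT members lie near one another on chromosome 19, where Ifit3 spans 34583531 to 34588731. All 5 OAS genes are on chromosome 5. Chromosome 16 holds 6 members. Among these, Dtx3l (35926511 to 35939151, minus strand) and Parp9 (35938470 to 35972605, plus strand) overlap, with starts 681 bases apart. Sequence shared with near copies limits some values: of the 31-base words of Ifit3, 61.8% also occur in Ifit3b, and 68.7% of those of Oas1a occur in Oas1g. How the authors' counting divided such reads, and whether it used strand, is not given in the sources used here, so values of these genes and of overlapping genes are uncertain in that respect.

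The values are the authors' normalized counts, not scaled for gene length, so levels are compared between samples for a given gene and not between genes. Summed over all genes they came to 11.3 to 24.3 times 1e6 per library, and the sequencing depth behind them is unknown. The tables were normalized separately, except that the untreated 36S columns were identical in both tables that hold them. A gene was tested in a comparison if it reached 10 normalized counts in 3 or more of the libraries compared. Log2 fold changes are on the log2(normalized count + 1) scale, which understates the change of low genes. A gene was called higher or lower at an adjusted p under 0.05 in limma. Untreated libraries of all genotypes expressed the MLL-AF9 targets Hoxa9, Hoxa10 and Meis1. Kit, the stem cell factor receptor, was lower in KD (383 ± 123) and in 36N (343 ± 176) than in 36S (1097 ± 178; SD, n = 3 each). In 36S, library 1 stood apart with a summed neutrophil marker level of 58304, against 8030 and 4492 in libraries 2 and 3.

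In KD marrow the members split: the IFIT genes Ifit1 and Ifit3, the OAS-like gene Oasl1, and Mx1, Zbp1, Ifitm3 and Cmpk2 were higher than in 36S, while Oas2 and Ddx58 were lower. Ifit3 was 4.75-fold higher and Oasl1 4.03-fold higher, the other 5 higher genes between 2.43-fold and 2.76-fold. Of 32 members tested, 7 were higher and 2 lower, which is 28.1%, where 11.5% of all 13109 genes tested were called (6.61% higher and 4.86% lower). The median log2 fold change was 0.26 over the tested members, with a range of -1.59 to 2.20, against -0.01 over all genes. Ifit3b and Ifi44 did not reach the level needed for testing. The comparison sets unsorted marrow labelled as low in GFI1 against 36S marrow, so leukemic and host cells both enter it.

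**Figure D1:**
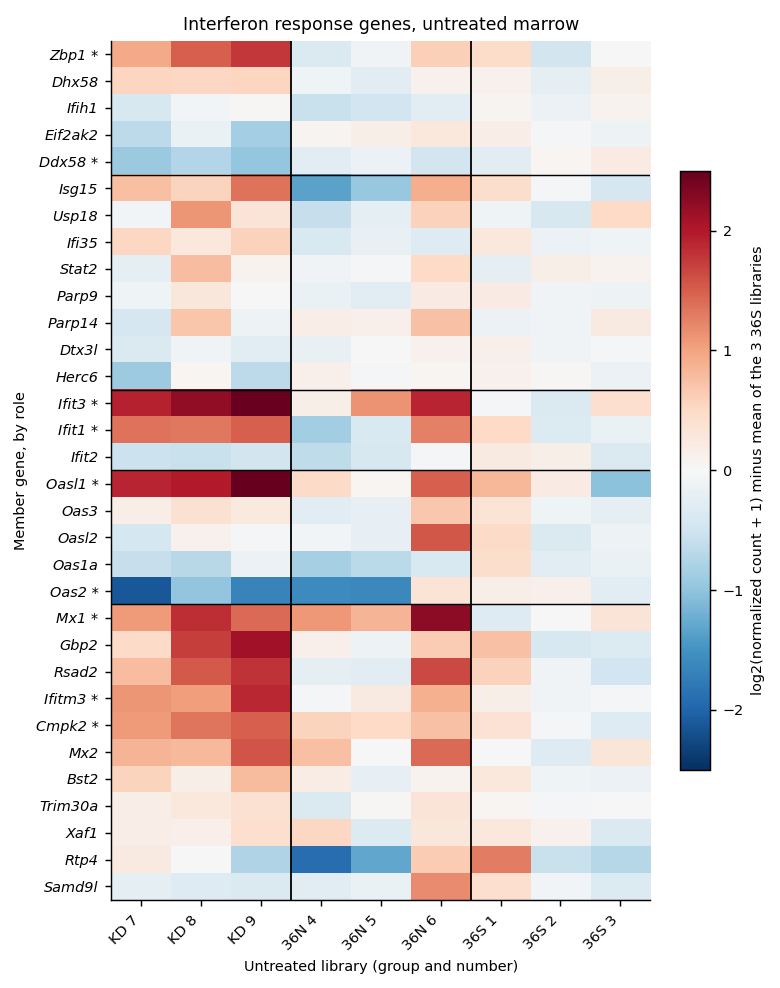
Level of each of the 32 members tested in KD against 36S in the 9 untreated libraries, as log2(normalized count + 1) minus the mean of the 3 36S libraries, with members down the page by role and columns for KD 7 to 9, 36N 4 to 6 and 36S 1 to 3. A star marks the 9 members called; of those drawn, Ifit3 and Oasl1 are the furthest above 36S, Oas2 is below it, and 36N library 6 is above 36N libraries 4 and 5 for most members.

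The IFIT proteins bind viral RNA that lacks the host's cap marks. Ifit3 had 62.03, 76.4 and 91.4 normalized counts in KD libraries 7, 8 and 9, against 15.1, 11.999 and 21.3 in 36S libraries 1, 2 and 3. Every KD library was above every 36S library, with a log2 fold change of 2.20 ± 0.33 (SE) and an adjusted p of 0.0034 in limma. Ifit1 had 68.3, 66.9 and 75.2 in KD and 37.5, 20.3 and 23.2 in 36S, again without overlap (1.39 ± 0.31, adjusted p = 0.020). Ifit3b, the near copy of Ifit3 with an almost identical promoter, had 9.97, 20.5 and 34.1 in KD, against 3.23, 3.69 and 0.972 in 36S. It lay below the level for testing and did not overlap between the groups. Ifit2 did not pass the test, with a log2 fold change of -0.51 (adjusted p = 0.15). The 4 IFIT members thus had different values: 2 were called higher, 1 was not called and 1 was not tested. Of all genes tested, 6.61% were called higher.

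OAS enzymes sense double-stranded RNA and make a messenger that activates RNase L. Mouse Oasl1 lacks that enzyme activity and is known to limit translation of Irf7. Oasl1 had 90.6, 94.9 and 138 normalized counts in KD and 42.2, 27.0 and 10.998 in 36S, without overlap (log2 fold change 2.13 ± 0.45, adjusted p = 0.015). Oas2 moved the other way, with 46.5, 103 and 64.2 in KD and 229, 225 and 169 in 36S (-1.59 ± 0.30, adjusted p = 0.0087). KD libraries were all below 36S libraries for Oas2. The remaining OAS members did not pass the test: Oas1a had a log2 fold change of -0.47, Oas3 of 0.26 and Oasl2 of -0.12.

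Among the sensors, Zbp1, which detects Z-form nucleic acid and can start necroptosis, had 175, 255 and 311 in KD and 125, 65.1 and 89.8 in 36S (log2 fold change 1.41 ± 0.29, adjusted p = 0.014). Ddx58, which encodes RIG-I, had 79.2, 90.8 and 77.2 in KD and 127, 157 and 176 in 36S (-0.88 ± 0.21, adjusted p = 0.027). Neither gene overlapped between the groups, and their directions were opposite. Eif2ak2, which encodes the kinase PKR, had 412, 583 and 364 in KD and 729, 641 and 597 in 36S, and did not pass the test (-0.56, adjusted p = 0.091). Ifih1, which encodes MDA5, and Dhx58, which encodes LGP2, were not called, at -0.15 and 0.53.

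Mx1, a GTPase that blocks viral ribonucleoproteins and is known to be defective in C57BL/6 mice, had 236, 404 and 302 in KD and 89.3, 112 and 140.1 in 36S (log2 fold change 1.44 ± 0.25, adjusted p = 0.0059). Ifitm3, which blocks virus entry at endosomes, had 2800.0, 2693 and 4814 in KD and 1428, 1216 and 1262 in 36S (1.35 ± 0.21, adjusted p = 0.0041). Cmpk2, a mitochondrial nucleotide kinase, had 258, 312 and 349 in KD and 159, 121 and 98.2 in 36S (1.29 ± 0.22, adjusted p = 0.0057). For all 3 genes every KD library was above every 36S library. Cmpk2 has as its neighbour on chromosome 12 Rsad2, which encodes viperin; their starts are 12752 bases apart. Rsad2 had 38.3, 66.2 and 80.2 in KD and 33.4, 20.8 and 15.5 in 36S, with a log2 fold change of 1.37 ± 0.40 and an adjusted p of 0.054. Gbp2, a GTPase of intracellular defence, had 54.7, 133 and 171 in KD and 65.9, 29.5 and 30.9 in 36S, which overlap (1.43, adjusted p = 0.075). Mx2 had 38.5, 37.2 and 64.0 in KD and 21.01, 16.5 and 26.2 in 36S (1.08, adjusted p = 0.085). Of the 11 effectors tested, 3 were called (27.3%), all higher, where 6.61% of all genes tested were called higher. Differences between the role classes were not tested.

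None of the 8 signalling and ISG15 members was called in KD, where 11.5% of all genes tested were called. Isg15 had a log2 fold change of 0.88 (adjusted p = 0.14). Usp18, which removes ISG15 and dampens the receptor, had a log2 fold change of 0.45, Stat2 of 0.20 and Herc6, the mouse ISG15 ligase, of -0.51. The partners Parp9, Dtx3l and Parp14 lay between -0.24 and 0.06. In all, 17 of the 32 members had a limma p under 0.05 before adjustment, as did 3469 of all 13109 genes tested. Over all members tested, 13 were higher in every KD library than in every 36S library and 5 were lower, where 31.5% of all genes did not overlap (15.7% higher and 15.8% lower).

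**Figure D2:**
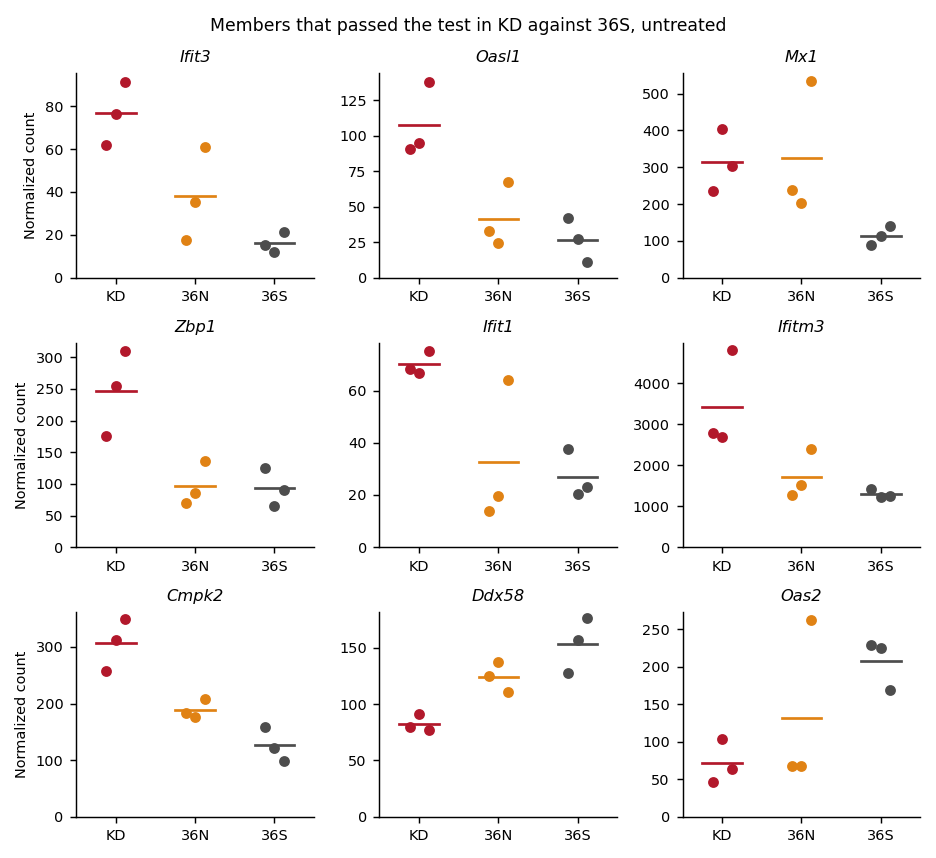
Normalized count of the 9 members called in KD against 36S, in each untreated library of KD, 36N and 36S, with a horizontal line at each group's mean and axes that start at 0. In all 9 panels no KD point overlaps the 36S points, and for Mx1 the 36N points (239, 203 and 533) reach as high as those of KD.

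Other genes of the pathway were read from lists of further interferon-stimulated genes, receptor chain, induction, restraint and type II interferon. In KD against 36S, 10 of 59 further interferon-stimulated genes were higher and 7 lower. That is 28.8%, where 11.5% of all genes tested were called. Ifi204, a DNA-binding protein of the mouse p200 family, had 598, 716 and 822 in KD and 105, 126 and 149 in 36S (log2 fold change 2.48 ± 0.19, adjusted p = 0.00011). Ifi205, of the same family, had 54.9, 84.5 and 104 in KD and 21.2, 13.7 and 8.75 in 36S (2.43 ± 0.40, adjusted p = 0.0051). Both rose. The Schlafen gene Slfn4 fell, with 253, 138 and 134 in KD and 803, 795 and 780.5 in 36S (-2.24 ± 0.23, adjusted p = 0.00049). Oas1c was also lower (-2.13, adjusted p = 0.018).

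Of the 6 receptor chain genes, 2 were higher in KD. Irf9, the DNA-binding subunit of the complex, had 482, 512 and 531 in KD and 314, 310.4 and 336 in 36S (log2 fold change 0.67 ± 0.13, adjusted p = 0.013). Ifnar2 had 4091, 3662 and 4647 in KD and 2600.5, 2666 and 2922 in 36S (0.59 ± 0.14, adjusted p = 0.023). Both were without overlap, while Ifnar1 (0.06, adjusted p = 0.83) was not called. Of 15 induction genes, 3 were higher and 1 lower. Irf7, which drives interferon-alpha genes, had 530.2, 364 and 457 in KD and 268, 129 and 215 in 36S (1.18 ± 0.26, adjusted p = 0.020); Irf5 and Unc93b1 were also higher and Tlr4 lower (-0.87). Trex1 (0.76) and Samhd1 (0.59), which remove self DNA or nucleotides, were higher among 12 restraint genes, and Ifngr2 (0.63) among 7 type II genes. The shares called were 33.3% of receptor chain, 26.7% of induction, 16.7% of restraint and 14.3% of type II genes. Over all genes tested the share was 11.5%, and the differences between shares were not tested.

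Of 20 type I and type III interferon genes, only Ifnz was present in the tables used here, at 0 to 11.9 normalized counts, below testing. The others, Ifnb1 among them, were not analysed here. Ifng, the type II interferon, had 2.20, 0.909 and 6.27 in KD and 2.18, 0 and 0 in 36S.

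Markers of other cells moved with the KD comparison, in which 11.5% of all genes tested were called. The summed level of 8 monocyte and macrophage markers was 88439 to 142320 in KD and 43479 to 48977 in 36S, and 5 of the 8 were higher. The T and NK cell list summed to 227 to 791 in KD and 132 to 214 in 36S, with 4 of 9 tested markers higher (Cd3e, Cd3g, Gzma and Gzmb). Cd3g, Gzma and Gzmb were under 10 in every 36S library. They reached the level for testing through KD alone, so their calls could only be higher. B and plasma cell markers summed to 849 to 1104 in KD and 3357 to 6382 in 36S, and 2 of 5 tested were lower. For the first 2 lists every KD library was above every 36S library, and for the B cell list every one was below. Eosinophil markers summed to 861 to 2424 in KD and 213 to 370 in 36S, with 2 of 3 higher. Of 3 mast cell and basophil markers, summing to 1281 to 1489 in KD and 224 to 454 in 36S, 1 was higher and 1 lower. The higher one, Cpa3, made up nearly all of the KD sums (1297, 1223 and 1452), and Mcpt8 was not called (-0.78). The lower one, Ms4a2, was under 10 in every KD library and could only be called lower. Neutrophil markers split, with Mmp8 (log2 fold change 2.94) higher and Camp (-4.91) and Ltf (-3.59) lower among 7 tested. They summed to 8187 to 13876 in KD and 4492 to 58304 in 36S, where library 1 is the high one. None of 3 tested plasmacytoid dendritic cell markers was called, and their sums of 3370 to 6105 in KD and 2668 to 3729 in 36S were nearly all Tcf4, which other cells express too. Siglech, the more specific marker, had 3.50, 9.54 and 5.96 in KD and 25.4, 14.4 and 24.95 in 36S (-1.67, adjusted p = 0.070). The part of these markers in the members' differences was not tested.

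The number of members called in KD moved with the libraries used. It was 5 without KD library 9, 6 without 36S library 2 and 12 without KD library 8. With library weights, which lower the weight of outlying libraries, it was 20. The shares of all genes called under these settings are not given here. Cmpk2, Ifit3, Ifitm3, Mx1 and Oas2 were called in all 15 alternatives run, while Oasl1 was not called in 1 of them, Zbp1 in 2, and Ifit1 and Ddx58 in 4 each.

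In 36N marrow none of the 32 tested members was called against 36S, where 4.56% of all 13137 genes were called (2.55% higher and 2.01% lower). The median log2 fold change of the members was 0.05, with a range of -0.95 to 1.39, against -0.01 over all genes. In limma, 4 of the 32 members had an unadjusted p under 0.05, as did 2679 of the 13137 genes, and limma with library weights called 7 members. Without 36N library 6 the count was 1. The 36S libraries are the same ones that the KD comparison used. Mx1 came nearest: it had 239, 203 and 533 in 36N and 89.3, 112 and 140.1 in 36S, without overlap, with a log2 fold change of 1.39 ± 0.34 and an adjusted p of 0.054. Cmpk2 had 184, 176 and 207 in 36N and 159, 121 and 98.2 in 36S (0.60, adjusted p = 0.15). Ifih1 had 279, 295 and 338 in 36N and 429.5, 369 and 436 in 36S (-0.44, adjusted p = 0.13). Cmpk2 thus stood above 36S in every 36N library, and Ifih1 below. Oas1a had 119, 132 and 161 in 36N and 287, 175 and 188 in 36S (-0.63, adjusted p = 0.16). With Ifi35, these made 2 members above and 3 below 36S in every library, where 26.9% of all genes did not overlap (13.1% higher and 13.8% lower).

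Around the members, Ifi204 was higher in 36N, with 271, 294 and 589 against 105, 126 and 149 in 36S (log2 fold change 1.51 ± 0.29, adjusted p = 0.021), and so was Epsti1 (0.75). Ifi27 was lower, with 98.6, 136 and 146 in 36N and 567, 295 and 254 in 36S (-1.47 ± 0.29, adjusted p = 0.026), as was Pml (-0.47). These were 4 of 58 further interferon-stimulated genes tested, or 6.90%, where 4.56% of all genes tested were called. No receptor chain, induction or restraint gene was called: Ifnar1 was at 0.25, Ifnar2 at 0.33, Irf9 at 0.15 and Irf7 at 0.14. Of the type II genes only Ifngr1 was called, lower in 36N (-0.49, adjusted p = 0.046). Of the cell markers, Lyz2 (0.91) of the monocyte list and Mmp8 (0.86) of the neutrophil list were higher in 36N and Kit (-1.81) was lower. The monocyte and macrophage list summed to 51835 to 57887 in 36N and 43479 to 48977 in 36S, and the neutrophil list to 8063 to 16779 in 36N and 4492 to 58304 in 36S. Their part was not tested.

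Compared directly, KD and 36N differed in 1 of 33 tested members, or 3.03%, where 3.24% of all 13118 genes were called (2.03% higher and 1.21% lower). Zbp1 had 175, 255 and 311 in KD and 69.9, 85.0 and 136 in 36N (log2 fold change 1.36 ± 0.29, adjusted p = 0.034 in limma). No KD library overlapped 36N for Zbp1, but it was not called in 5 of the 15 alternatives. The count of members called was 0 with equal totals, 16 with library weights and 7 without KD library 8. The next members by p were Eif2ak2 at -0.71, Oasl1 at 1.46, Cmpk2 at 0.69 and Ifitm3 at 0.996, with adjusted p of 0.067, 0.068, 0.073 and 0.079. Mx1 had a log2 fold change of 0.05 (adjusted p = 0.95). In all, 14 of the 33 members had an unadjusted p under 0.05 in limma, as did 2491 of the 13118 genes. Among 58 further interferon-stimulated genes, Ms4a4c (1.14), Ly6e (0.85) and Pml (0.76) were higher in KD and Slfn4 (-2.10) was lower. That is 6.90% of that list, where 3.24% of all genes were called. Ifngr1 was higher (0.67), and Irf7 did not pass the test (1.04, adjusted p = 0.082).

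Cell markers differed between KD and 36N as well, where 3.24% of all genes tested were called. Of 7 neutrophil markers, Mmp8 was higher in KD (log2 fold change 2.08) and 4 were lower, with Camp at -4.98 and Ltf at -3.21; the list summed to 8187 to 13876 in KD and 8063 to 16779 in 36N. Of 8 monocyte and macrophage markers, Ly6c2 (1.20) and Ccr2 (0.89) were higher, with sums of 88439 to 142320 in KD and 51835 to 57887 in 36N. Of 5 B and plasma cell markers, Igkc (-2.24) and Jchain (-2.35) were lower, with sums of 849 to 1104 in KD and 2477 to 4061 in 36N. The monocyte sums were thus higher in every KD library than in any 36N library and the B cell sums lower, while the neutrophil sums overlapped. Prg2 (4.11) and Siglecf (2.59) of the eosinophil list, Cpa3 (4.37) of the mast cell list and Gzmb (2.10) of the T and NK cell list were higher in KD. The other listed mast cell and basophil markers did not go with Cpa3. Mcpt8 was not called (-0.26), and Ms4a2, which was not tested, had means of 1.58 in KD and 9.38 in 36N. No tested gene of the plasmacytoid dendritic cell list or of the list drawn up for the leukemia was called. The part of these differences in the members' values was not tested.

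With TMZ, 36N cells changed in 15 of 32 tested members: Gbp2, Ddx58, Samd9l, Bst2, Ifi35, Dhx58, Herc6 and Parp9 were higher than in untreated 36N, and Mx1, Dtx3l, Ifit2, Ifih1, Parp14, Ifitm3 and Eif2ak2 were lower. That is 46.9% of the members, against 69.7% of all 14390 genes tested (36.3% higher and 33.5% lower). The difference between these shares was not tested. The median log2 fold change of the members was 0.20, with a range of -1.91 to 2.08, against 0.06 over all genes. The groups did not overlap for the same 15 members, 8 higher and 7 lower, where 74.5% of all genes did not overlap (38.7% higher and 35.8% lower).

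**Figure D3:**
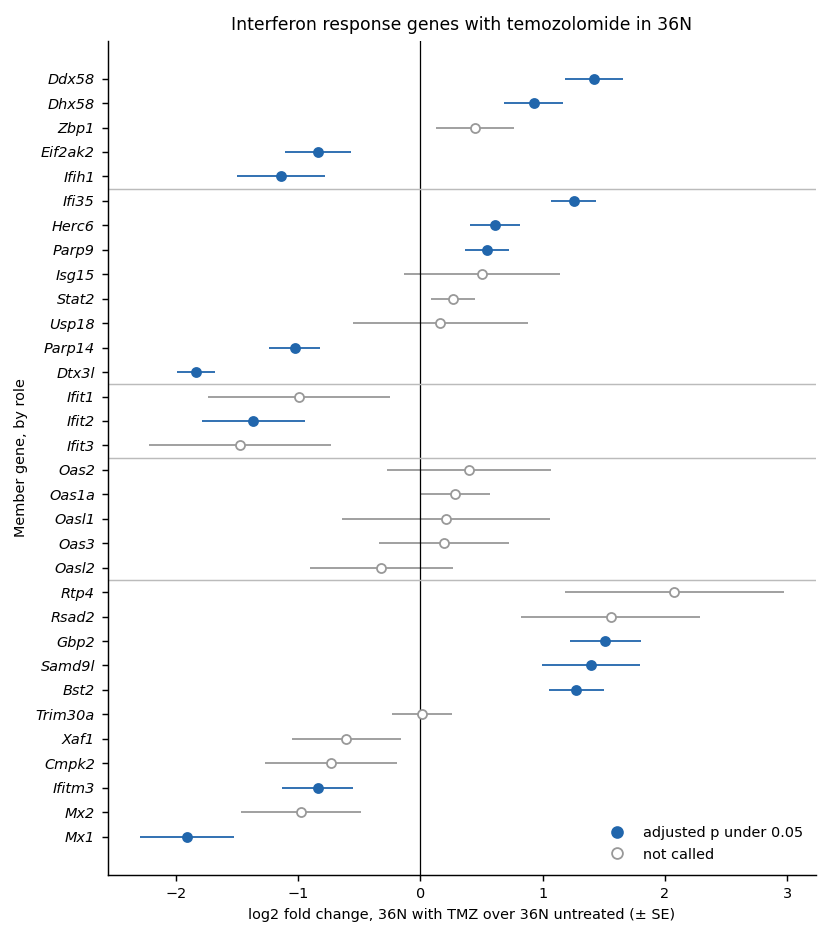
Log2 fold change of each tested member in 36N TMZ against untreated 36N, with bars for the standard error and members grouped by role; filled points have an adjusted p under 0.05. Filled points lie on both sides of 0 within the sensors, the signalling genes and the effectors, and none of the 5 OAS genes is filled.

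The sensors split evenly in number. Ddx58 (RIG-I) had 349, 558 and 599.8 normalized counts in 36N TMZ and 184, 202 and 163 in untreated 36N (log2 fold change 1.42 ± 0.24, adjusted p = 0.0012 in limma). Dhx58 (LGP2), a regulator of the same family, had 248, 359 and 224 in 36N TMZ and 141, 125 and 163 in 36N (0.93 ± 0.24, adjusted p = 0.0098). Both rose without overlap. Ifih1 (MDA5), the third member of that family, fell: it had 197, 368 and 128 in 36N TMZ and 427, 452 and 521 in 36N (-1.14 ± 0.36, adjusted p = 0.022). Eif2ak2 (PKR) had 593, 1048 and 478 in 36N TMZ and 1123, 1176 and 1278 in 36N (-0.83 ± 0.27, adjusted p = 0.025). For both, TMZ library 5 was the highest of the 3 and still below every untreated library. Zbp1 overlapped (0.45, adjusted p = 0.24).

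Among the signalling genes, Dtx3l, an E3 ubiquitin ligase that works with Parp9, had 486, 609 and 449 in 36N TMZ and 1629, 1862 and 2012 in 36N. This was the lowest p among the members, with a log2 fold change of -1.84 ± 0.16 and an adjusted p of 3.6e-05. Parp9 itself had 486, 613 and 540.1 in 36N TMZ and 353, 324 and 455 in 36N (0.54 ± 0.18, adjusted p = 0.028). The partners, whose genes overlap on opposite strands, were thus called in opposite directions. Parp14, a further ADP-ribosyl transferase of the same cluster, had 546, 755 and 578 in 36N TMZ and 1116, 1086 and 1667 in 36N (-1.03 ± 0.21, adjusted p = 0.0030). Ifi35 had 317, 416 and 373 in 36N TMZ and 143, 166 and 151 in 36N (1.25 ± 0.18, adjusted p = 0.00058). Herc6, the mouse ISG15 ligase, had 377, 615 and 481 in 36N TMZ and 332, 296 and 319 in 36N (0.61 ± 0.20, adjusted p = 0.028). Groups did not overlap for any of these 5 genes, while Stat2 (0.27), Usp18 (0.16) and Isg15 (0.50) were not called.

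In the effector class, Gbp2 had 196, 169 and 257 in 36N TMZ and 66.7, 55.7 and 96.4 in 36N (log2 fold change 1.51 ± 0.29, adjusted p = 0.0023). Samd9l, an inhibitor of translation and growth, had 1075, 1966 and 1440.0 in 36N TMZ and 384, 409 and 1060.3 in 36N (1.40 ± 0.40, adjusted p = 0.016). Bst2, which encodes tetherin and holds budding virus at the cell surface, had 701, 1245 and 931 in 36N TMZ and 429, 329 and 405 in 36N (1.27 ± 0.23, adjusted p = 0.0015). All 3 rose, and for Samd9l the highest untreated library lay just below the lowest TMZ library. Mx1 fell to 72.7, 104 and 71.5 in 36N TMZ, against 249.5, 211 and 558 in 36N (-1.91 ± 0.39, adjusted p = 0.0029). Ifitm3 had 1662, 952 and 1529 in 36N TMZ and 1829.8, 2181.9 and 3484 in 36N (-0.84 ± 0.29, adjusted p = 0.031). Of the IFIT genes Ifit2 was called, with 102, 155 and 48.4 in 36N TMZ and 196, 230.1 and 298 in 36N (-1.37 ± 0.42, adjusted p = 0.020). These 3 members did not overlap between the groups.

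Several members had wide spread within the TMZ libraries and were not called. Rtp4, a small transmembrane protein, had 25.4, 204 and 111 in 36N TMZ and 8.46, 13.7 and 56.9 in 36N (log2 fold change 2.08 ± 0.90, adjusted p = 0.071). Rsad2 had 66.2, 349 and 112 in 36N TMZ and 29.8, 28.5 and 114 in 36N (1.56 ± 0.73, adjusted p = 0.091). TMZ library 5 was the highest in both. Ifit3 had 6.69, 50.9 and 19.0 in 36N TMZ and 28.3, 57.4 and 99.4 in 36N (-1.48, adjusted p = 0.11), and Mx2 had a log2 fold change of -0.98 (adjusted p = 0.11). Ifi44, which did not reach the level for testing, had 0.802, 60.8 and 10.8 in 36N TMZ and 1.87, 1.05 and 0 in 36N. The 5 OAS genes had log2 fold changes between -0.32 and 0.40. Across the 16 alternatives run, Herc6 was not called in 7, Parp9 in 6, Eif2ak2 in 5, Ifitm3 in 4, and Ifit2, Ifih1 and Samd9l in 2 each. The other 8 called members were called in all 16. The count of members called was 8 without untreated library 5, and with the replicate number as a block it was 17 (9 higher and 8 lower).

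Upstream of the members, Ifnar2 fell, with 1275, 1341 and 1793 in 36N TMZ and 5102, 4656 and 5814 in 36N (log2 fold change -1.83 ± 0.16, adjusted p = 4.2e-05). Irf9 rose, with 630.0, 1152 and 970.4 in 36N TMZ and 437, 467 and 663 in 36N, which overlap (0.79 ± 0.26, adjusted p = 0.026). Ifnar1 (-0.10) was not called. Irf7 had 149, 1383 and 331 in 36N TMZ and 182, 176 and 377 in 36N, and overlapped (0.83, adjusted p = 0.35). Of 16 induction genes, 5 were higher and 7 lower, with Tlr3 at 3.36, Tlr9 at -5.59, Irf5 at -2.18 and Ticam1 at -1.71. Of 13 restraint genes, 5 were higher and 5 lower, with Socs3 at 5.30, Socs1 at 3.41, Rnaseh2a at 2.26 and Pias1 at -2.67. SOCS1 and SOCS3 are inhibitors of cytokine receptor signalling. Of 60 further interferon-stimulated genes, 13 were higher and 21 lower. Ifitm1, of the same family as Ifitm3, had 4565, 4979 and 12382 in 36N TMZ and 11.2, 32.3 and 39.3 in 36N (8.01 ± 0.53, adjusted p = 1.2e-05). Ifitm1 thus rose while Ifitm3 fell, and Slfn4 (-4.30), Slfn1 (-3.90) and Ms4a4c (-3.63) fell too. Of 7 type II genes, 1 was higher, Cd274 (2.09), and 3 lower, with Ciita at -3.15. The shares called were 33.3% of receptor chain, 75% of induction and 76.9% of restraint genes. For further interferon-stimulated genes the share was 56.7%, and for type II genes 57.1%. Over all genes tested it was 69.7%, and the differences between shares were not tested.

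Markers of cell type differed widely between 36N TMZ and untreated 36N, where 69.7% of all genes tested were called. Mast cell and basophil markers summed to 69149 to 194250 in 36N TMZ and 101 to 609 in 36N. Of the tested markers, 7 of 7 were called higher. Mcpt4, Tpsb2, Tpsab1 and Fcer1a were at 0 in every untreated 36N library, and Cma1 was at most 2.55 there. Mcpt4, Tpsb2, Fcer1a and Cma1 thus reached the level for testing through TMZ libraries alone, so their calls could only be higher. Plasmacytoid dendritic cell markers summed to 341 to 478 in 36N TMZ and 6195 to 11152 in 36N, with 3 of 3 lower. These sums were nearly all Tcf4 (324 to 455 in 36N TMZ and 6130 to 11020 in 36N), which other cells express too. Among the 3 markers, Ccr9 reached the level for testing through untreated libraries alone and could only be called lower. B and plasma cell markers summed to 140 to 235 in 36N TMZ and 3392 to 5523 in 36N, with 5 of 5 lower. The same limit held for Cd79a, Igkc and Jchain, which could only be called lower. The mast cell sums were thus higher in every TMZ library than in any untreated one, and the dendritic and B cell sums lower. Monocyte and macrophage markers summed to 19914 to 54168 in 36N TMZ and 76575 to 88122 in 36N, with 2 of 8 higher and 3 lower. Eosinophil markers summed to 1033 to 4403 in 36N TMZ and 183 to 437 in 36N, with 3 of 3 higher. Epx reached the level for testing through TMZ libraries alone and could only be called higher. The T and NK cell list summed to 6370 to 9046 in 36N TMZ and 248 to 364 in 36N. Of 9 tested markers, 2 were higher and 6 lower. The 6 lower ones reached the level for testing through untreated libraries alone, so their calls could only be lower. Gzmb made up most of the TMZ sums, with Cd3e and Gzma at 0 in all 3 TMZ libraries. Neutrophil markers summed to 2570 to 20125 in 36N TMZ and 11939 to 24382 in 36N, with S100a8 and Camp lower among 7. The T and NK cell sums thus went up with TMZ while most markers of that list went down. In the list drawn up for the leukemia, Hoxa9 (-2.07), Hoxa10 (-4.88), Meis1 (-0.76) and Ptprc (-0.82) were lower with TMZ and Kit (5.25) was higher. Kit thus rose alongside the mast cell and basophil markers, and which cells carried its RNA was not determined. Drug, any time in culture and the cells present cannot be told apart in this comparison.

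Between the TMZ genotypes none of the 33 tested members was called, and neither was any of the 14246 genes tested (0%). In limma, 2 of the 33 members had an unadjusted p under 0.05, as did 191 of the 14246 genes. All other settings run gave 0 members called too. The log2 fold changes of 36N TMZ over 36S TMZ were above 0 for 31 of the 33, with a median of 0.33 and a range of -0.14 to 1.40, against a median of 0.01 over all genes. Library 5 was the highest of 36N TMZ for 28 of these members, and library 2 the highest of 36S TMZ for 21. The members therefore do not count as separate observations, and the share of all genes above 0 was not computed. Mx1 had 112, 159 and 108 in 36N TMZ and 46.2, 84.0 and 32.1 in 36S TMZ (1.30 ± 0.40, unadjusted p = 0.013). Zbp1 had 274, 450.0 and 284 in 36N TMZ and 149, 262 and 177 in 36S TMZ (0.78 ± 0.31, unadjusted p = 0.036). With Parp9 and Parp14, these were the 4 members whose groups did not overlap, all higher in 36N TMZ, where 4.76% of all genes did not overlap 2.9% higher and 1.86% lower. The adjusted p was 0.9998 in limma for every member. Mast cell and basophil markers summed to 105880 to 294850 in 36N TMZ and 96357 to 260590 in 36S TMZ, and no gene of any marker or pathway list was called.

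The genotype difference with TMZ minus that without, computed from differences within each separately normalized table, was called for none of 32 members, where 0.333% of all 12324 genes were called (0.235% higher and 0.0974% lower). In limma, 2 of the 32 members had an unadjusted p under 0.05, as did 861 of the 12324 genes. The 2 were Oas1a (1.08 ± 0.40, adjusted p = 0.51) and Ddx58 (0.71 ± 0.31, adjusted p = 0.69).

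Within groups the members tended to be high together in a library. In 36N TMZ, library 5 was the highest of 3 for 28 of the 33 tested members (84.8%), where it was the highest for 34.2% of all genes. In 36S TMZ, library 2 was the highest for 21 of 33 (63.6%; 37.5% of all genes), in untreated 36N library 6 for 27 of 32 (84.4%; 38.4%), and in 36S library 1 for 23 of 32 (71.9%; 38.0%). In KD, library 9 was the highest for 18 of 32 (56.25%; 28.5% of all genes), library 8 for 12 (37.5%; 38.5%) and library 7 for 2 (6.25%; 33.0%). In 36N TMZ the median deviation of the members in library 5 from the group mean was 0.60 on the log2 scale. The median SD of a member within a group was 0.59 in 36N TMZ, against 0.26 over all genes, and 0.42 in 36S TMZ, against 0.34. In the untreated groups it was 0.31 in KD, against 0.26, 0.42 in 36N, against 0.21, and 0.32 in 36S, against 0.21. In all 5 groups the members' median SD was above that of all genes.

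**Figure D4:**
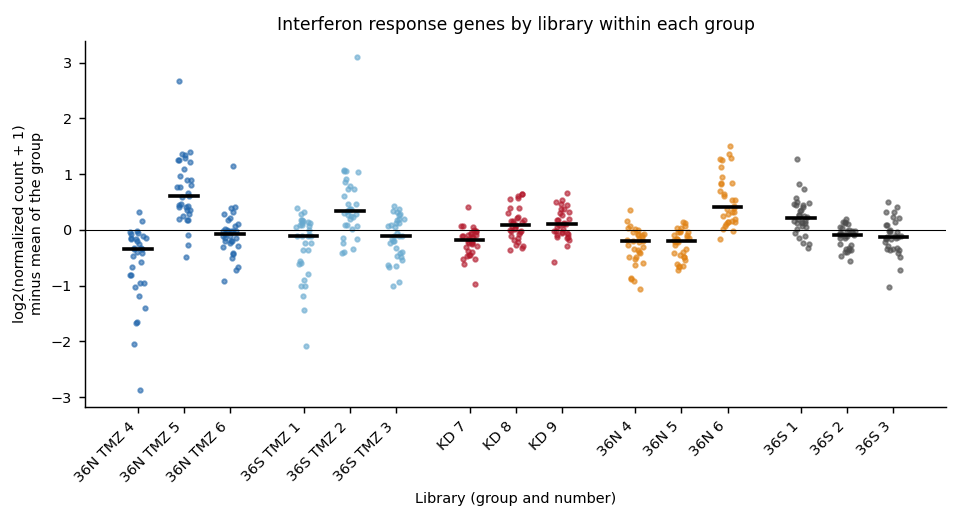
Deviation of each tested member from its group's mean, in log2(normalized count + 1), for the 3 libraries of 36N TMZ, 36S TMZ, KD, 36N and 36S; each point is a member and the black bar is the library's median. The bars of 36N TMZ library 5 (0.60), 36N library 6 (0.41), 36S TMZ library 2 (0.34) and 36S library 1 (0.21) are the highest of their groups.

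Irf7, which is not a member, and Ifi44, which is already among the members counted, were highest in the same TMZ libraries. Untreated, Ifi44 was only 0 to 1.91 in 36N and 36S and showed no such order. In the TMZ table Irf7 had 144, 1323 and 313 in 36N TMZ and 203, 442 and 320.3 in 36S TMZ, and Ifi44 had 1.57, 118 and 20.6 in 36N TMZ and 0.664, 59.5 and 2.54 in 36S TMZ. Both were highest in 36N TMZ library 5 and 36S TMZ library 2. These libraries also had the lowest summed neutrophil markers (3920 and 5010) and monocyte markers (32535 and 37064) of their groups, and the lowest plasmacytoid dendritic cell sums (626 and 592). Those dendritic cell sums were nearly all Tcf4 (609 and 564), which other cells express too. In untreated 36N, library 6 had the lowest Kit (161), Hoxa9 (1039.7) and Hoxa10 (339) of its group. The other genes of that list went the other way, with Meis1 (1518.5) and Ptprc (6484) highest in library 6. Library 6 also had the highest summed plasmacytoid dendritic cell markers, at 5839 against 3262 and 3603 in libraries 4 and 5. Tcf4 made up 5759 of the 5839. Library 6 had Siglech at 47.9, against 20.4 and 7.92. Its erythroid sum was 190.0, against 25.2 and 8.98, and its neutrophil, monocyte and B cell sums were the highest of its group as well. In 36S, library 1 had the highest neutrophil sum, and its T and NK cell, mast cell and eosinophil sums were also the highest of its group. Its plasmacytoid dendritic cell sum was the lowest, at 2668 against 3032 and 3729 in libraries 2 and 3, with Siglech at 25.4 against 14.4 and 24.95. The part of these differences in the spread of the members was not tested.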

How the data were processed

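The deposited values are normalized counts per gene, treated here as a signal: they are values the authors scaled and deposited. Salmon, DESeq2 and the mm10 build are named, without version or role, per the submitters' processing notes, and other steps are not given. Whole reads could not be recovered from the values (tolerance 0.1 reads), so the depth and the precision it gives are unknown. In 15 samples from the labels' 5 groups, limma 3.58.1 (R 4.3.3) was fitted with a mean-variance trend to log2(normalized count + 1) in each comparison's own groups, over genes with at least 10 in 3 libraries, with Benjamini-Hochberg adjustment over all genes tested; 6 comparisons were made. The fit was tested on simulated data. Alternatives changed the pseudocount, filter, scaling, trend and weights, left out each library, or used the replicate number as a block. Sequences came from RefSeq GRCm38.p6 and were searched with Python 3.11.15.

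The members and lists were chosen with earlier results of these data known. Any member could be named; by rule, values per library were given for called members and for up to 4 uncalled members of lowest p. Ifit3b and Ifi44 were added after their values were seen. Of each pathway list, up to 4 called genes were named by size of change, and Ifnar1, Ifnar2, Irf9, Irf7, Ifnb1 and Ifng whatever their values; 1 further gene of that rule is not reported here. The titles of 36N TMZ and 36N libraries share replicate numbers, but the main fit did not use them as pairs. In deviations from the group means, same-numbered libraries correlated at 0.019, 0.037 and 0.086 over all genes. Over the members the values were 0.48, -0.31 and 0.21. With 3 libraries per group these values cannot show whether the libraries are paired. The fit of genotype differences with and without TMZ also treated same-numbered libraries as independent.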

Additional observations from a re-analysis of the deposited data

How the results depend on the processing

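No called member reversed its direction in any alternative run, and medians over the members moved by less than the spread between replicates. Library weights raised the number of members called to 20 (15 higher, 5 lower) in KD against 36S. They raised it to 16 (13 higher, 3 lower) in KD against 36N and to 7 (3 higher, 4 lower) in 36N against 36S. The cause was not tested. The shares of all genes called under the alternative settings are not given here. The counts of members under those settings are therefore not set against all genes. In KD against 36N the count was 0 with equal totals and 0 without the trend, and 0 to 7 when a library was left out: 7 with KD library 8 omitted, 5 with 36N library 6 omitted, 2 with KD library 7 omitted, and 0 with KD library 9, 36N library 4 or 36N library 5 omitted. Leaving out a library gave 5 to 12 members called in KD against 36S (5 without KD library 9), 0 to 1 in 36N against 36S (1 without 36N library 6), and 8 to 16 in 36N TMZ against 36N (8 without untreated library 5). Other settings gave 13 to 19 in 36N TMZ against 36N, and none called a member between the TMZ genotypes or in the difference of genotype differences. With the replicate block, 36N TMZ against 36N had 17 members called; no other comparison of 2 groups shares replicate numbers. Scaling libraries to equal totals moved the median log2 fold change of all genes to -0.13 in both KD comparisons and to -0.09 from 0.06 in 36N TMZ against 36N, so changes of that size depend on the scaling. With 3 libraries per group and unknown depth, low members such as Ifit3b and Ifi44 could not be tested in most comparisons.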
